A study of Bos taurus with 10 samples.

Results

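Small RNA fragments of the glutamine (Gln), aspartate (Asp), asparagine (Asn) and arginine (Arg) tRNAs were examined in bull sperm. They were taken from the authors' table of tRNA-derived small RNAs (tsRNAs) by name: each row that begins with one of the 4 amino acids under the tRNA prefix and ends in 5′, 3′, other or whole. This gave 328 rows of the 184397 in the table and of the 1468 tRNA rows of the same 4 kinds. The rows belong to 82 tRNA entries, each named by amino acid, anticodon and a running number and each listed once per kind: 23 for glutamine, 11 for aspartate, 12 for asparagine and 36 for arginine. What the kinds other and whole hold is not given in the sources used here.

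The 10 samples were sperm of cattle (Bos taurus) that had received no extra treatment. High bull fertility was given for 3 samples and low bull fertility for 3. High fertility of the associated daughters was given for 3 and low fertility of the associated daughters for 3. There are 2 samples with both labels: both had high bull fertility, and one of them had high and the other low daughter fertility. The labels name no breed, age or bull, so p-values speak only of how far these samples scatter. The authors deposited 1 value per group, a normalized count that behaves as the median of the 3 libraries, so no spread within a group can be shown, nor whether groups overlap. Fold changes are high over low fertility, and the standard errors (SE) given with them were computed here from those changes and their p. The SEs of both comparisons were nearly equal for most rows, such as 0.75 and 0.75 for the 5′ row of Gln-CTG-1, so a p may rest on samples of the other comparison as well. Whether the 2 samples with both labels entered such a fit more than once is not given in the sources used here.

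Transfer RNAs bring amino acids to the ribosome, and nucleases can cut them in or near the anticodon loop into 5′ and 3′ pieces. In mammalian sperm, which make almost no new RNA, such pieces are a prominent class of small RNA, and in mice 5′ fragments of glycine, glutamate and valine tRNAs are the best known of them. In mice, sperm gain part of this RNA while they mature in the epididymis. Aspartate and asparagine tRNAs can carry queuosine, a modified guanosine, at the first anticodon position, and in cultured human cells this modification was linked to less cleavage. Arginine tRNAs serve the synthesis of protamines, the arginine-rich proteins that pack sperm DNA.

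Of the 328 rows, 208 had a value above 0 in at least 1 group and 149 had a mean group value of at least 10. Those 149 are 42 rows for 5′ fragments, 44 for 3′ fragments and 63 called other, and no whole row is among them. Values of the whole rows were low: 4 of the 82 had a group value above 0, and the highest, Asp-GTC-2, had 7.94 normalized counts with low daughter fertility. A group value of 0 does not mean that no library held a read, and 13 whole rows have a p in the authors' deposited table. A normalized count stood for 0.618 to 1.39 reads among libraries of high bull fertility and for 0.945 to 1.89 among those of low bull fertility. It stood for 0.618 to 0.785 reads with high daughter fertility and for 0.903 to 2.21 with low daughter fertility, so the ranges of that comparison did not overlap. The part of depth in the daughter fertility results was not tested. MicroRNAs of germ cells and sperm (5 of 5 listed) had mean normalized counts of 393 to 6860 in the authors' deposited microRNA table on bull fertility and of 939 to 7694 in that on daughter fertility. Lists for leukocytes, red cells and epithelium reached at most 167, 140 and 156 in the first and 177, 180 and 123 in the second of these, and no listed microRNA was at 0.

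The fragments of these 4 amino acids were a small part of the tRNA signal. They made up 4.51% of the summed values of all tRNA rows with high bull fertility and 4.01% with low bull fertility, and 3.61% in the high and 4.0% in the low daughter fertility group. Arginine was the largest part of this, at 2.05% in the high and 2.00% in the low bull fertility group, followed by glutamine at 1.68% in the high and 1.28% in the low group. Aspartate made up 0.639% in the high and 0.611% in the low bull fertility group, and asparagine 0.149% in the high and 0.115% in the low group. With high daughter fertility arginine held 1.74% and glutamine 1.03%, and with low daughter fertility 2.08% and 1.13%. Sums over rows may count a read more than once: 35 of the 149 rows lay within 5% of another row of their own anticodon and kind in all 4 groups, and 7 equalled one. How reads that fit several entries were counted is not given in the sources used here.

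The mix of fragments in these tRNAs was unlike that summed over the other tRNAs in the table. The 5′ rows held 29.7% of the summed values with high bull fertility and 32.9% with low bull fertility, and 31.8% in the high and 24.9% in the low daughter fertility group. Over all other tRNA rows the 5′ share lay between 91.1% and 92.2% in the 4 groups. Glycine, glutamate, valine and histidine made up 81.7% to 85.2% of that sum, and without them the 5′ share of the other tRNAs was 77.0% to 79.3% and the 3′ share 11.3% to 12.0%. The 3′ rows held 26.9% in the high and 33.1% in the low bull fertility group, and 31.6% in the high and 34.8% in the low daughter fertility group, against 3.48% to 4.30% over the other tRNAs. The rows called other made up the rest, 34.0% to 43.4%. Without spread within a group these shares carry no test, and in bulk sperm fewer cells of a type and less RNA per cell cannot be told apart. The median library can differ from row to row, so a share need not be that of any single library.

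The 4 amino acids differed among themselves in this mix. Glutamine was mostly 5′ and other: its 5′ rows held 49.0% in the high and 65.5% in the low bull fertility group, and 65.0% in the high and 44.2% in the low daughter fertility group, and its 3′ rows between 1.99% and 3.68%. Aspartate was split between both ends, with 32.6% to 37.9% in 5′ rows and 38.9% to 42.3% in 3′ rows. Asparagine had almost no 5′ signal, 0.797% to 2.85%, and 62.1% to 73.7% in rows called other. Arginine had 11.3% to 15.1% in 5′ rows and 42.2% to 50.4% in 3′ rows. Aspartate and asparagine, which can carry queuosine, stood far apart in their 5′ share. Histidine, which can carry the same modification, had 99.8% to 99.9% of its signal in its 5′ row (1 entry). The part of queuosine in this mix was not tested.

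**Figure D1:**
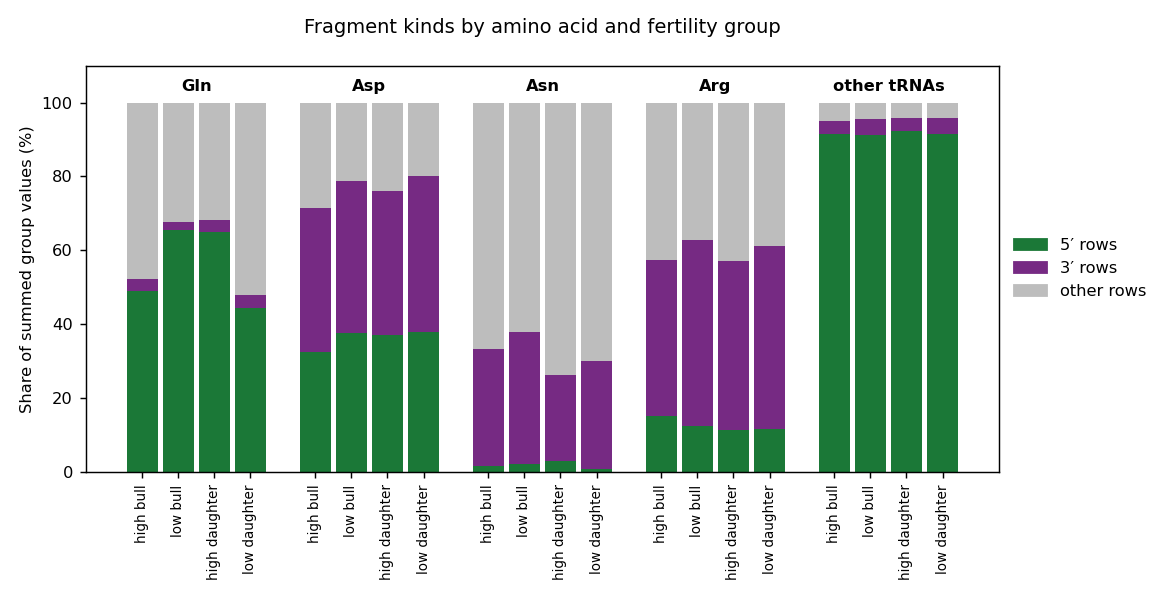
Share of the summed group values (%, y axis) held by 5′, 3′ and other rows in each fertility group (x axis), for each of the 4 amino acids and for all other tRNA rows. The 5′ part is at or above 91.1% in the other tRNAs and does not pass 65.5% in any of the 4 amino acids. The other tRNAs are pooled. Without glycine, glutamate, valine and histidine, which are not drawn apart, their 5′ part is 77.0% to 79.3%.

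Within an amino acid the mix differed between anticodons. The difference between groups in the glutamine mix lay in tRNA-Gln-CTG, whose 5′ rows held 42.3% in the high and 65.2% in the low bull fertility group, and 65.8% in the high and 37.6% in the low daughter fertility group. Its rows called other ran the opposite way, at 55.6% in the high and 33.6% in the low bull fertility group, and at 32.2% in the high and 60.0% in the low daughter fertility group. In the authors' fit the median log2 fold change for bull fertility was -0.37 over its 5′ rows and 0.45 over those called other. With daughter fertility both were negative, -0.19 and -0.28. The low daughter values of the 5′ and the other row of Gln-CTG-1 came from different libraries. For Gln-TTG the 5′ share was 66.8% in the high and 66.8% in the low bull fertility group, and 62.6% in the high and 63.7% in the low daughter fertility group. For Gln-CTG the high bull and low daughter fertility groups were near each other, as were the low bull and high daughter fertility groups. The first pair shares 1 library and the second none, and the high bull and high daughter fertility groups also share 1. The part of shared libraries in this mix was not tested. Among arginine tRNAs, 3′ rows held 60.2% to 67.0% of Arg-CCG and 56.7% to 63.0% of Arg-CCT, rows called other 52.1% to 64.4% of Arg-TCG, and 5′ rows 61.3% to 65.8% of Arg-TCT. Arg-ACG had 37.2% in 5′ rows in the high and 44.1% in the low bull fertility group, and 37.3% in the high and 57.6% in the low daughter fertility group.

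A single row held 54.4% to 59.3% of the 5′ sum of Gln-TTG and another 65.1% to 75.3% of that of Arg-TCT, and both have values close to rows outside their anticodon. The 5′ row of Gln-TTG-6 had 1809 normalized counts in the high and 1572 in the low bull fertility group, and 1251 in the high and 1617 in the low daughter fertility group. That of Arg-TCT-9 had 1805 in the high and 1594 in the low bull fertility group, and 1175 in the high and 1573 in the low daughter fertility group. In all 4 groups Gln-TTG-6 lay within 5% of 62 rows of the tRX prefix, which tRNA gene catalogues give to genes of lower confidence, and those rows are named for several amino acids, most often glutamate, glycine or undetermined. Arg-TCT-9 lay within 5% of 17 such rows. Without these rows the 5′ share was between 41.9% and 45.8% for Gln-TTG and between 29.8% and 35.6% for Arg-TCT. Of 76 rows at a mean of 100 or more, 8 had such a tRX neighbour, and the other 6 had 1 or 2 each.

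For bull fertility no fragment of the 4 amino acids passed, and the smallest p belonged to the 3′ row of Arg-TCG-5, with 80.1 normalized counts in the high and 294 in the low bull fertility group. After Benjamini-Hochberg adjustment of all 98760 p-values in the authors' deposited table, 0 rows had an adjusted p under 0.05 (0% of the table), and each row's adjusted p was 1. An unadjusted p under 0.05 was found in 246 rows of the table (0.249%), in 0 of the 227 rows of the set with a p, and in 10 of 779 rows of the other tRNAs. At a mean of 10 or more the counts were 40 of 3795 in the table (1.05%) and 0 of 141 in the set. The median log2 fold change of the 149 rows was -0.24 in the authors' deposited table, with 45 positive and 104 negative. It was -0.18 over the other tRNA rows and -0.03 over the table. Glutamine stood on the other side of 0 from the rest, with a median of 0.24 (30 positive, 16 negative), while aspartate had -0.39, asparagine -0.14 and arginine -0.39. The positive median rests on the 19 glutamine rows called other, with a median of 0.30, since the 18 glutamine 5′ rows had a median of -0.19 (7 positive, 11 negative) and the 9 glutamine 3′ rows -0.05 (4 positive, 5 negative). Rows called other had a median of 0.18 over the table and -0.09 over the other tRNAs.

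For daughter fertility the smallest p-values belonged to 3′ and other rows of all 4 amino acids, each with a negative fold change, and none passed. After adjustment 0 rows of the set and 0 rows of the table (0%) had an adjusted p under 0.05 from the p-values in the authors' deposited table. An unadjusted p under 0.05 was found in 8 of the 227 rows (3.52%), all 8 lower with high daughter fertility, against 1.33% of the table, with 1.18% of the table lower. Over the other tRNA rows the count was 35 of 779 (4.49%), so the share in the set was not above that of tRNA fragments at large. Among rows with a mean of at least 10 it was 6 of 141 (4.26%), against 3.37% of the table, 2.24% of it lower, and 5.81% of the other tRNA rows. These 6 are the 3′ rows of Gln-CTG-1, Gln-TTG-2 and Arg-TCG-5 and the other rows of Asn-GTT-3, Asn-GTT-4 and Arg-CCG-1. The 8 also include the 3′ row of Asp-GTC-14 and the other row of Gln-TTG-10, both scarce. Asp-GTC-14 had the smallest p of the set, with 1.31 normalized counts in the high and 7.22 in the low daughter fertility group, or 1 read in the high and 10 in the low group, and a log2 fold change of -3.68 (SE 1.25, unadjusted p = 0.00320) in the authors' deposited table. The median library of Gln-TTG-10 had 0 reads in the high and 5 in the low daughter fertility group, near the limit of 3 reads that a count of 0 allows.

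The median log2 fold change of the 149 rows for daughter fertility was -0.46, with 39 positive and 110 negative, in the authors' deposited table. As the log2 ratio of group values, with a pseudocount of 1, it was -0.12, and the sign was the same in 113 of the 149 rows. For the other tRNA rows that ratio had a median of -0.34. The fitted median was -0.55 over the other tRNA rows and 0.04 over the table, so the median of the set was nearer to that of the other tRNA fragments than to that of the table. Asparagine had -1.03, glutamine -0.53, aspartate -0.46 and arginine -0.14. By kind, the 3′ rows had a median of -0.81, the rows called other -0.32 and the 5′ rows -0.18. Over the other tRNA rows these medians were -0.99, -0.42 and -0.44, and over the table -0.64, -0.04 and 0.10. The most negative kind was thus the 3′ rows there too. The 2 comparisons share 2 samples, and 14 of the 149 rows had the same value with high bull and high daughter fertility and 13 the same value with high bull and low daughter fertility.

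**Figure D2:**
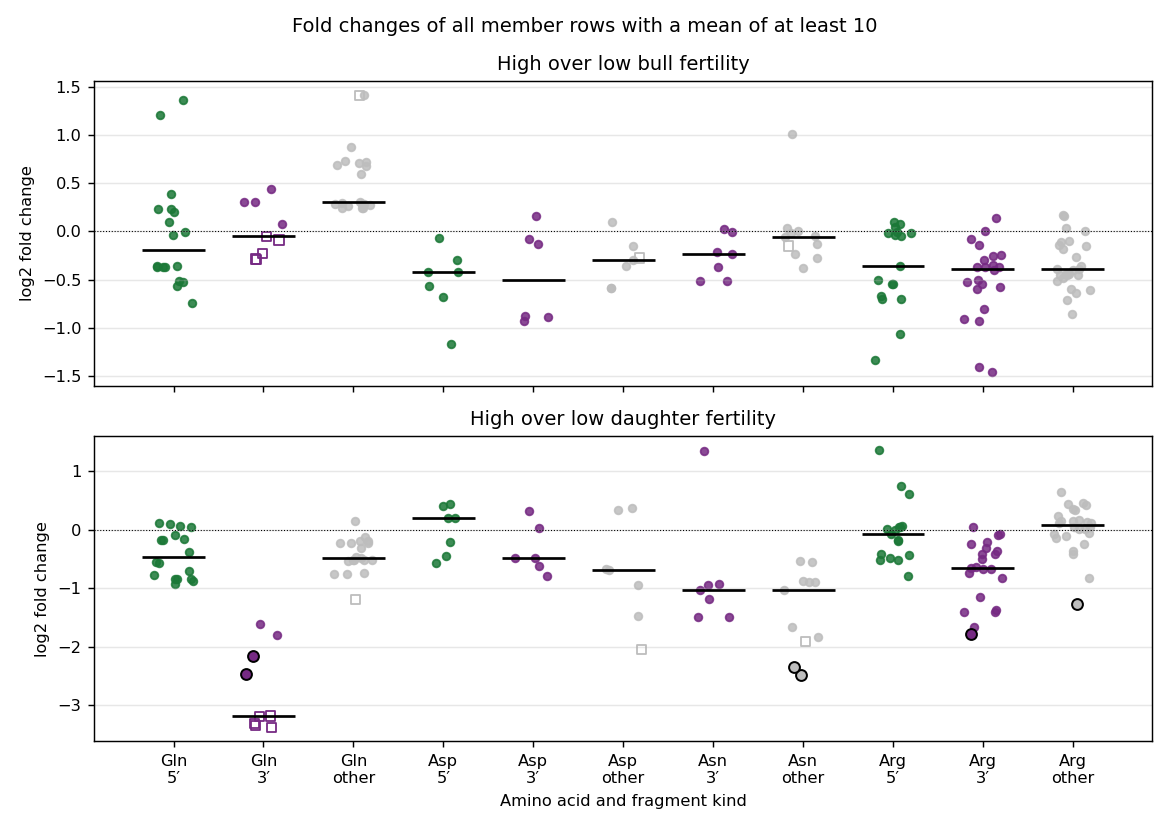
The authors' log2 fold changes (y axis), high over low fertility, of the 149 rows with a mean of at least 10 by amino acid and fragment kind (x axis), with a black bar at each median. Large outlined points have an unadjusted p under 0.05 (6 rows, all for daughter fertility) and open squares have no p. All 19 Gln other rows lie above 0 for bull fertility and all 9 Gln 3′ rows below 0 for daughter fertility.

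Glutamine fragments are led by Gln-CTG, the tRNA that reads the CAG codon. The 5′ row of Gln-CTG-1 had 1761 normalized counts in the high and 3280 in the low bull fertility group, and 2298 in the high and 1665 in the low daughter fertility group. The other row of Gln-CTG-1 had 906 in the high and 666 in the low bull fertility group, and 450 in the high and 1136 in the low daughter fertility group. The 5′ row is lower and the other row higher in the high bull fertility group, and the reverse holds for daughter fertility. By the authors' deposited table the 5′ row had a log2 fold change of -0.37 (SE 0.75, p = 0.619) for bull fertility and -0.18 (SE 0.75, p = 0.810) for daughter fertility in the fit across all rows. The other row had 0.28 (SE 0.77, p = 0.715) and -0.53 (SE 0.77, p = 0.493) in the authors' deposited table. All 4 of these changes are smaller than their SE, and for the 5′ row the fitted change with daughter fertility has the opposite sign to the group values. By group values the 5′ rows of Gln-CTG-2, Gln-CTG-7 and Gln-CTG-11 followed the same pattern, with 1147 to 3211 normalized counts in the low bull fertility group. So did the scarcer Gln-CTG-3 and Gln-CTG-4. The 5′ rows of Gln-CTG-6, Gln-CTG-8 and Gln-CTG-9 ran the opposite way in both comparisons, with 60.8 to 90.4 in the low bull fertility group. Those of Gln-CTG-5 and Gln-CTG-13 were lower with high fertility in both. The fitted daughter change was -0.10 for Gln-CTG-2 and 0.10 for Gln-CTG-7 and Gln-CTG-11.

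Every glutamine row called other with a mean of at least 10 had a positive fold change for bull fertility, 19 of 19, from 0.24 to 1.41 on the log2 scale in the authors' deposited table. None of them had a p under 0.05, and several hold nearly the same values, such as Gln-CTG-1 and Gln-CTG-6, so they are not 19 separate observations. The one with the smallest p was Gln-CTG-12, with 35.4 normalized counts in the high and 13.4 in the low bull fertility group and a log2 fold change of 1.41 (SE 0.86, p = 0.101) in the authors' deposited table. For daughter fertility 18 of the 19 were negative there, with a median of -0.49. Of 1536 rows called other in the table, 999 were positive for bull and 789 negative for daughter fertility. Of 217 such rows of the other tRNAs, 90 were positive for bull and 173 negative for daughter fertility. A pair of 5′ rows of Gln-TTG also stood on the positive side for bull fertility. Gln-TTG-2 had 143 in the high and 59.2 in the low bull fertility group, and the authors' deposited table gives a log2 fold change of 1.36 (SE 0.86, p = 0.115). Gln-TTG-3 had 307 in the high and 106 in the low bull fertility group, and a log2 fold change of 1.21 (SE 0.96, p = 0.209) in the authors' deposited table. Their high bull values exceed the low bull ones by more than 2-fold, and neither change passed.

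Among rows with a mean of 10 or more, the 3′ rows of glutamine had the most negative median fold change for daughter fertility of the amino acids and kinds in the set. All 9 with a mean of at least 10 were negative, from -3.38 to -1.62 with a median of -3.18 in the authors' deposited table, where the median over 3′ rows of the other tRNAs was -0.99. The 5 most negative of the 9 have no p there, and the median is the value of one of these 5. The rows with a p ran from -2.46 to -1.62. For Gln-TTG-2 the group values were 97.0 normalized counts in the high and 115 in the low daughter fertility group, and 123 in the high and 49.1 in the low bull fertility group. For Gln-CTG-1 they were 26.2 in the high and 64.2 in the low daughter fertility group, and 64.2 in the high and 47.3 in the low bull fertility group. Gln-TTG-2 had a log2 fold change of -2.46 (SE 1.03, unadjusted p = 0.0167) in the authors' deposited table for daughter fertility. Gln-CTG-1 had -2.17 (SE 0.90, unadjusted p = 0.0164) in the authors' deposited table. The group values differ far less than these fold changes: over the 9 rows the median log2 ratio of the group values, with a pseudocount of 1, was -0.87. The fitted and the plain value differed by over 1 log2 unit in 8 of the 9 rows, in 29 of the 149 rows of the set and in 38 of 524 rows of the other tRNAs. A median of 3 libraries does not show a single high or low library, and which libraries carry the fitted change cannot be seen from these values. No p is given for 5 of the 9 rows in the authors' deposited table, and in all 8 of the 149 rows lack one, against 8 of 524 among the other tRNAs.

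**Figure D3:**
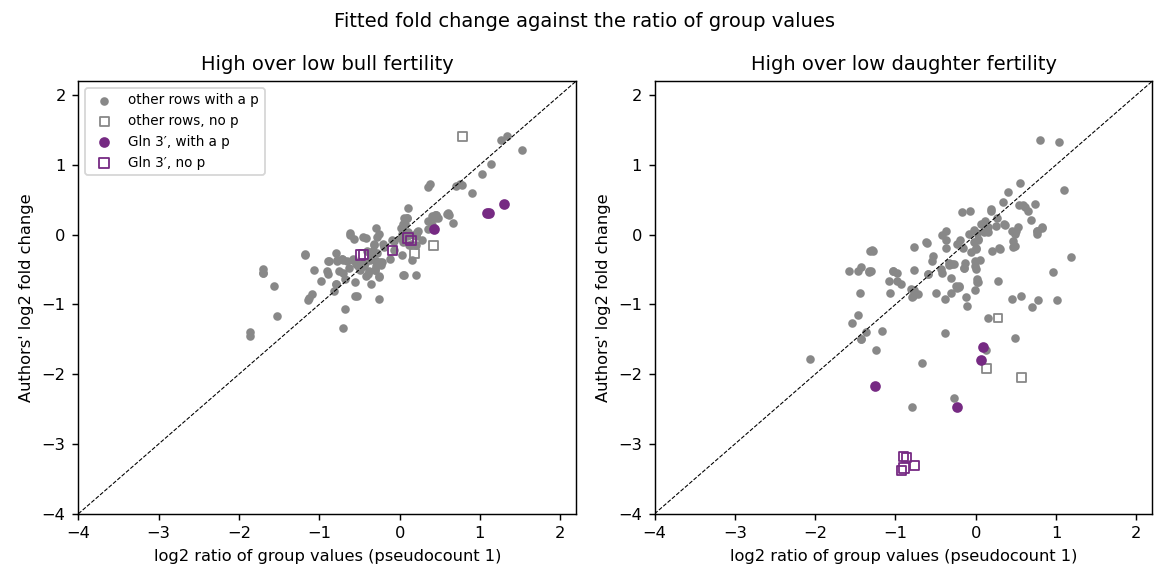
The authors' log2 fold change (y axis) against the log2 ratio of the 2 group values with a pseudocount of 1 (x axis) for the 149 rows above the filter on means. The dashed line marks equality, and open squares are rows with no p. For daughter fertility the 9 Gln 3′ rows lie below the line, 8 of them by over 1 log2 unit, while for bull fertility 3 of the 149 rows differ that much.

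Aspartate fragments come from tRNA-Asp-GTC, and the single Asp-ATC entry did not exceed 3.70 normalized counts in any group. The 3′ row of Asp-GTC-2 had 1070 normalized counts in the high and 1549 in the low bull fertility group, and 1696 in the high and 1876 in the low daughter fertility group. Its 5′ row had 945 in the high and 1357 in the low bull fertility group, and 1610 in the high and 1622 in the low daughter fertility group. The other row had 668 in the high and 644 in the low bull fertility group, and 845 in the high and 744 in the low daughter fertility group. By group values the 5′ and 3′ rows were lowest in the high bull fertility group. The 5′ row was almost equal in the 2 daughter fertility groups by group values, but not in the authors' fit. There its log2 fold change for daughter fertility was -0.45 (SE 0.80), about as large as its change for bull fertility. The fitted daughter changes were -0.49 (SE 0.84) for the 3′ row and 0.34 (SE 0.76) for the other row. Each of these daughter changes was smaller than its SE. For bull fertility the authors' deposited table gives the 3′ row a log2 fold change of -0.87 (SE 0.84, p = 0.300) and the 5′ row -0.42 (SE 0.80, p = 0.595). The other row has -0.58 (SE 0.76, p = 0.443) in the authors' deposited table, the opposite sign to its group values. All 7 aspartate 5′ rows with a mean of at least 10 had a negative change with bull fertility by the authors' deposited table, from -1.16 to -0.06, and none had a p under 0.05. The lowest of them, Asp-GTC-15, had 15.2 normalized counts in the high and 45.5 in the low bull fertility group, and the authors' deposited table gives -1.16 (SE 0.77, p = 0.132). For daughter fertility 4 of the 7 were positive and 3 negative.

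Asparagine fragments, all of tRNA-Asn-GTT, were the scarcest of the 4. The other row of Asn-GTT-7 had 303 normalized counts in the high and 300 in the low bull fertility group, and 216 in the high and 374 in the low daughter fertility group. The 3′ row of Asn-GTT-1 had 201 in the high and 248 in the low bull fertility group, and 81.3 in the high and 222 in the low daughter fertility group. Both were lowest with high daughter fertility. Their log2 fold changes for daughter fertility were -0.88 (SE 0.78, p = 0.263) and -1.49 (SE 0.91, p = 0.100) in the authors' deposited table. All 11 asparagine rows called other with a mean of at least 10 were negative for daughter fertility, from -2.47 to -0.54. So were 17 of all 18 asparagine rows at that mean, with a median of -1.03 in the authors' deposited table. Among the other tRNA rows at that mean 432 of 524 were negative. Group values can run the other way: the other row of Asn-GTT-12, at -0.54 in the authors' deposited table, had 69.5 in the high and 35.3 in the low daughter fertility group, and that of Asn-GTT-5, which has no p, 25.5 in the high and 23.1 in the low group. The 3′ rows of Asn-GTT-3, Asn-GTT-4, Asn-GTT-5 and Asn-GTT-10, also negative in the fit, had higher group values with high daughter fertility too. That of Asn-GTT-10, at -0.94 in the fit, had 24.2 in the high and 11.6 in the low group. The remaining rows negative in the fit were lower with high daughter fertility by group values as well. The positive exception in the fit was the 3′ row of Asn-GTT-8, with 24.2 in the high and 11.3 in the low daughter fertility group and a log2 fold change of 1.33 (SE 0.93, p = 0.152) in the authors' deposited table. With bull fertility the median of the 18 rows was -0.14. There, the other row of Asn-GTT-12 had 49.1 in the high and 21.7 in the low bull fertility group, and 1.01 (SE 0.87, p = 0.250) in the authors' deposited table.

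Asn-GTT-3 and Asn-GTT-4 held the smallest p-values of the asparagine rows. The other row of Asn-GTT-3 had 17.8 normalized counts in the high and 31.8 in the low daughter fertility group, or 14 reads of the median library in the high and 44 in the low group. It had a log2 fold change of -2.47 (SE 0.98, unadjusted p = 0.0117) in the authors' deposited table. The other row of Asn-GTT-4 had 17.8 in the high and 21.7 in the low daughter fertility group, or 14 reads in the high and 30 in the low group. For it the authors' deposited table gives -2.34 (SE 0.98, unadjusted p = 0.0169), although the group values are close. These 2 rows had the same high daughter value and rest on few reads.

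Arginine had the most abundant rows of the set. The 3′ row of Arg-CCG-2 had 2975 normalized counts in the high and 3802 in the low bull fertility group, and 3571 in the high and 5159 in the low daughter fertility group. The other row of Arg-TCG-1 had 2582 in the high and 2535 in the low bull fertility group, and 2724 in the high and 3843 in the low daughter fertility group, and its 3′ row had 1546 in the high and 2085 in the low bull fertility group, and 1777 in the high and 3508 in the low daughter fertility group. All 3 were highest with low daughter fertility. Their log2 fold changes for daughter fertility were -0.31 (SE 0.75, p = 0.680), -0.83 (SE 0.81, p = 0.300) and -0.67 (SE 0.86, p = 0.440) in the authors' deposited table. By group values the 3′ row of Arg-CCT-4 had its wider gap between the bull fertility groups, with 1153 in the high and 2548 in the low group. With daughter fertility it had 1561 in the high and 1533 in the low group. In the authors' fit this row was not set apart from those 3 rows. Its fitted log2 fold change for daughter fertility was -0.68 (SE 0.71), between -0.83 and -0.31. For bull fertility the authors' deposited table gives it -0.93 (SE 0.71, p = 0.192), and the other row of the same entry, with 524 in the high and 1112 in the low bull fertility group, -0.85 (SE 0.64, p = 0.182).

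Over arginine rows with a mean of at least 10, 56 of 65 had a negative change with bull fertility by the authors' deposited table, with a median of -0.39 and a range of -1.46 to 0.17. For daughter fertility the kinds differed: 21 of 22 arginine 3′ rows were negative, with a median of -0.65, while 17 of 26 rows called other were positive, with a median of 0.07 in the authors' deposited table. Over the other tRNAs 116 of 135 3′ rows were negative, and 44 of 217 rows called other were positive. The 3′ rows of Arg-TCG-5 and Arg-TCG-6 were equal in 2 groups and apart in the low daughter fertility group. Arg-TCG-5 had 80.1 normalized counts in the high and 294 in the low bull fertility group, and 121 in the high and 507 in the low daughter fertility group. Arg-TCG-6 had 80.1 in the high and 293 in the low bull fertility group, and 121 in the high and 149 in the low daughter fertility group. Arg-TCG-5 had the smallest p of the whole set for bull fertility, with a log2 fold change of -1.46 (SE 0.89, p = 0.100) in the authors' deposited table, and -1.78 (SE 0.89, unadjusted p = 0.0442) for daughter fertility. For Arg-TCG-6 the authors' deposited table gives -1.40 (SE 0.99, p = 0.159) for bull fertility and -0.83 (SE 0.99, p = 0.401) for daughter fertility.

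The other row of Arg-CCG-1 was the most abundant with an unadjusted p under 0.05. It had 749 normalized counts in the high and 2180 in the low daughter fertility group, and 749 in the high and 856 in the low bull fertility group. The authors' deposited table gives -1.27 (SE 0.65, unadjusted p = 0.04996) for daughter fertility. The equal values of the high daughter and high bull groups come from a library that both contain. The 5′ row of Arg-TCG-1 had fold changes of opposite sign in the 2 comparisons, with 51.1 in the high and 84.0 in the low bull fertility group and 62.9 in the high and 35.8 in the low daughter fertility group. Its log2 fold changes were -1.34 (SE 1.08, p = 0.214) and 1.35 (SE 1.08, p = 0.208) in the authors' deposited table, each little over its SE.

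**Figure D4:**
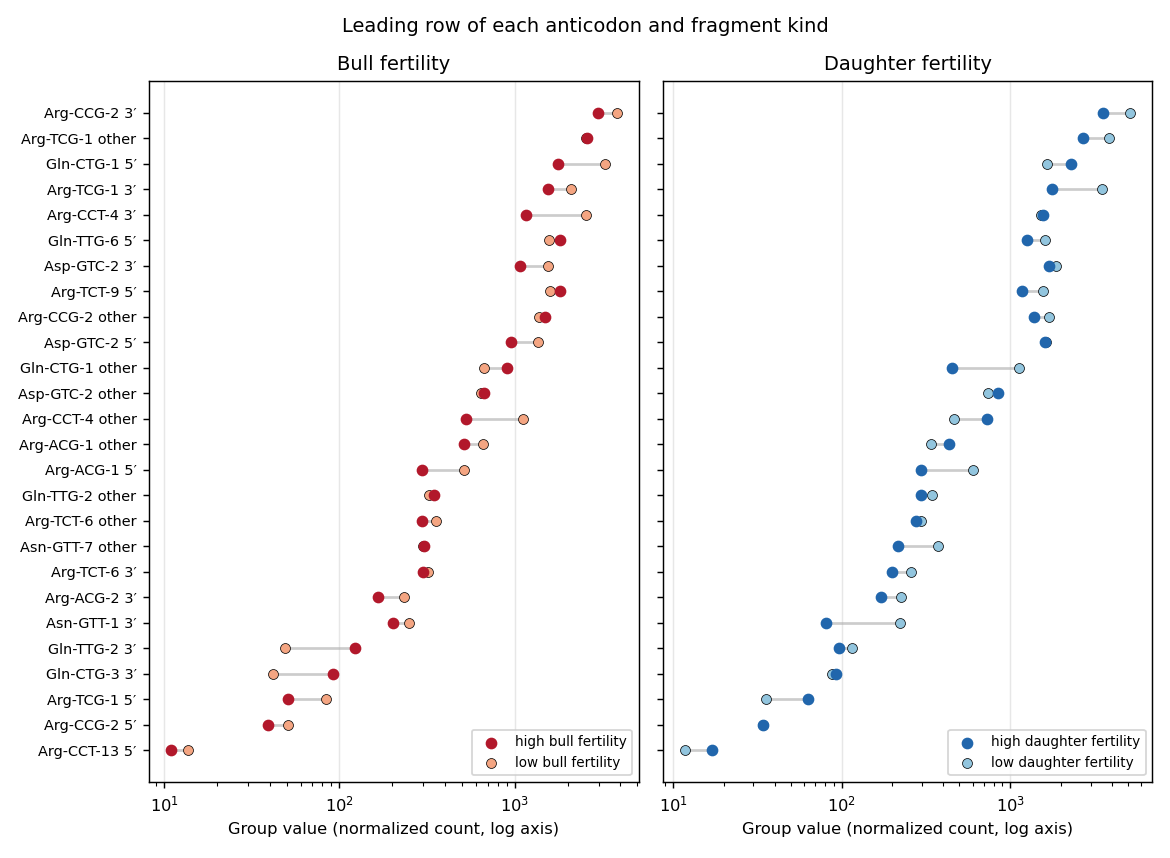
Group values (normalized counts, log x axis) of the leading row of each anticodon and fragment kind (y axis), for bull fertility on the left and daughter fertility on the right, with a grey line between the high and low group. Gln-CTG-1 5′ and Arg-CCT-4 3′ are among the wider gaps on the left: 1761 in the high and 3280 in the low bull fertility group for Gln-CTG-1, and 1153 in the high and 2548 in the low group for Arg-CCT-4.

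**Figure D5:**
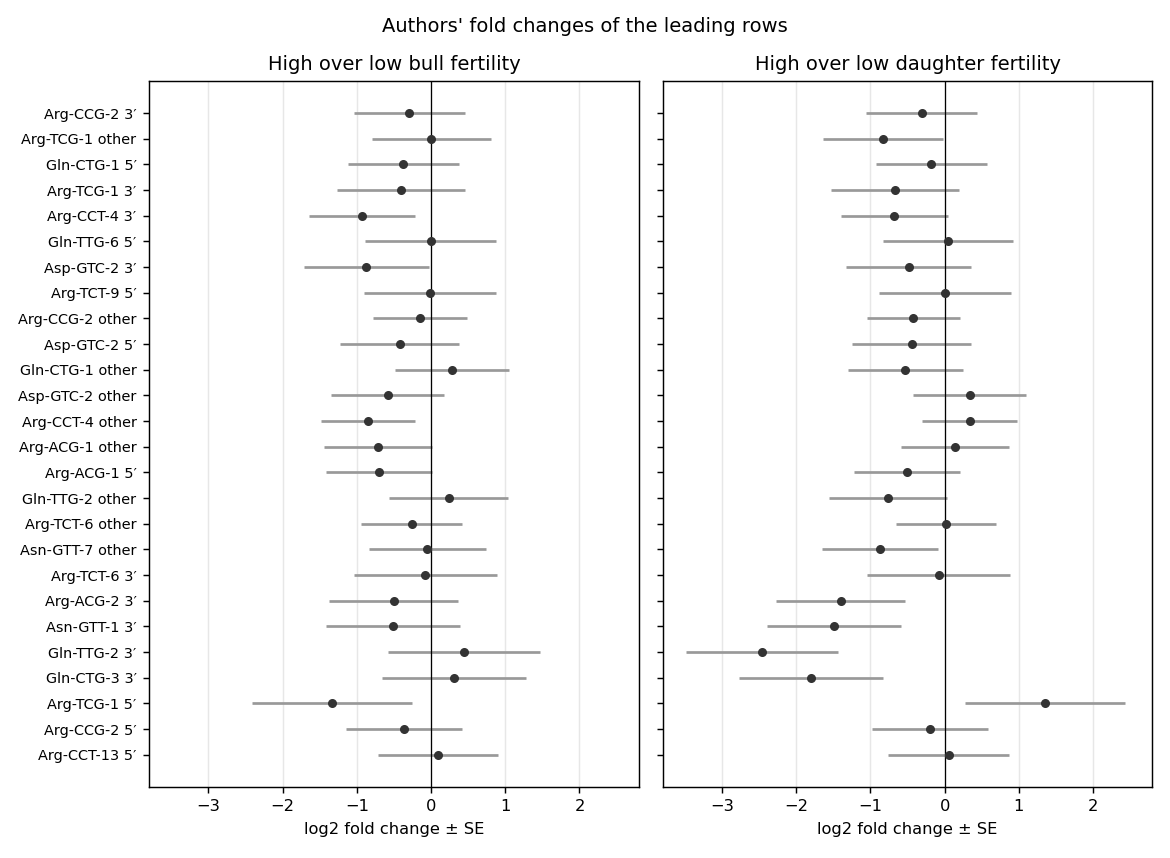
The authors' log2 fold changes, high over low fertility, with the SE derived here as bars (x axis), for the same leading rows (y axis). Most bars cross 0, and Gln-TTG-2 3′, at -2.46 ± 1.03 for daughter fertility, lies farthest from it.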

How the data were processed

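Small RNA of 10 bull sperm samples was sequenced after extraction with a miRNeasy kit and library construction with a NEBNext kit, per the labels' protocols. The submitters' processing notes list Trimmomatic 0.39 and DESeq2 1.34.0 but not what each was used for. Aligner, genome build and tRNA annotation are not given in these sources. In the tsRNA table deposited by the authors, each row has 1 normalized count (a signal) per group and, per comparison, a log2 fold change with a p-value that is not adjusted. The 2 microRNA tables deposited by the authors give the mean normalized count, log2 fold change, standard error, Wald score, p-value and adjusted p-value of each microRNA.

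The count tests planned were replaced by the authors' p-values, because each group has 1 value. P-values were adjusted by Benjamini-Hochberg over all rows with one, with a threshold of 0.05. The SE is the absolute fold change divided by the normal quantile of p. All positive group values were whole multiples (tolerance 0.0001) of what 1 read was worth in 1 of 3 libraries, which gives the reads of that library and the relative depth. No intervals were computed. Medians used rows whose mean over the groups was 10 or more. Named rows are the most abundant row of each anticodon and kind and, per comparison, the 4 with the smallest p in each direction, 1 per set of equal values. A few rows beside them, such as Gln-CTG-2, Asp-GTC-14 and the other row of Arg-CCG-1, were chosen after their values were seen. The members and lists were chosen with earlier results of these data known. Routines were tested on simulated data (Python 3.11.15, pandas 2.3.3, scipy 1.17.1).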

Additional observations from a re-analysis of the deposited data

Results flagged for a closer look

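A weak signal appeared in kinds of rows that the comparisons above do not use. Antisense rows of the same tRNAs were above 0 in 58 of 82 cases and over 3 reads in at least 1 group in 29, with a highest value of 13.0 normalized counts. The summed antisense values were 115 in the high and 61.9 in the low bull fertility group, and 91.3 in the high and 123 in the low daughter fertility group. Rows for partial precursor tRNAs were over 3 reads in 2 of 4 cases, with a highest value of 8.04 normalized counts, and whole precursor and trailer rows had group values of 0 in 4 of 4 cases each. With 1 value per group, no sample could be compared with others of its group and no difference between the 2 comparisons was tested.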

How the results depend on the processing

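No fragment of the set passed under any adjustment tried: over rows with a mean of at least 10 or 100 the count stayed at 0 in both comparisons. With an unadjusted p under 0.05 it was 8 for daughter fertility, and 0 for bull fertility. Asking also for a mean of at least 10, an alternative chosen after seeing the data, it was 6 and 0. The median log2 fold change for bull fertility, -0.24, was -0.15 with no filter, -0.35 at a mean of at least 100, -0.23 with equal rows counted once, -0.25 and -0.22 as the ratio of group values with pseudocounts of 1 and 10, -0.36 over 5′ rows and -0.29 over 3′ rows. For daughter fertility, -0.46 became -0.40 with no filter, -0.44 at a mean of at least 100, -0.12 and -0.10 as the ratio of group values, -0.18 over 5′ rows and -0.81 over 3′ rows. Chosen after seeing the data, it was -0.42 over rows with a p and -0.48 without Gln-TTG-6 and Arg-TCT-9. The cause was not tested. Without those 2 rows the 5′ share was 23.7% in the high and 28.9% in the low bull fertility group, and 28.1% in the high and 20.7% in the low daughter fertility group. With the most abundant row of each anticodon and kind alone, the 3′ share was 34.7% in the high and 39.8% in the low bull fertility group, and 39.6% in the high and 44.2% in the low daughter fertility group. The share called other was then 34.7% in the high and 29.2% in the low bull group, and 31.5% in the high and 31.4% in the low daughter group, and the whole share 0.0364%, 0.0220% and 0.0332% in the high bull, low bull and low daughter groups. Among 39 named rows the ratio of group values (pseudocount 1 or 10) lay within 1 SE of the fitted change in 39 for bull and 30 for daughter fertility, with another sign in 6 and 8. No paired analysis was possible because the columns hold 1 value per group. For the same reason no sample was left out, and low bull was not set against low daughter fertility.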

Other observations

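Rows of the tRX prefix named for the same amino acids were listed beside the tRNA rows. Aspartate had 1408 tRX rows against 44 tRNA rows, and sums over rows may count a read more than once. The summed values of its tRX rows were 39216 normalized counts in the high and 43381 in the low bull fertility group, and 37313 in the high and 58702 in the low daughter fertility group. The summed values of the tRNA-Asp rows were lower in every group: 6516 in the high and 8583 in the low bull fertility group, and 9978 in the high and 10085 in the low daughter fertility group. Glutamine and asparagine went the other way: the tRX sums were 6967 and 354 with high bull fertility, against 17094 and 1516 for the tRNA rows. For arginine the tRX sum was 18204 in the high and 21009 in the low bull fertility group, also below the 20889 and 28124 of the tRNA rows. The 3′ row of Arg-CCT-3, at 1109 in the high and 2433 in the low bull fertility group, had a tRX row with equal values in all 4 groups.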
